A study of Homo sapiens with 9 samples.

Results

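Transcripts of 31 genes of glycolysis and of glucose and lactate transport were followed in the breast cancer line MDA-MB-231 under TEPA. The genes were taken by name, step by step along the pathway, with earlier results of these data known. They are the glucose transporters SLC2A1 and SLC2A3, the enzymes from hexokinase to lactate dehydrogenase, and the lactate transporters SLC16A1 and SLC16A3. The rest are the enzymes that set fructose bisphosphate signalling (PFKFB2, PFKFB3, PFKFB4 and TIGAR), 4 pyruvate dehydrogenase kinases, and the related genes PGM1 and PGM2. All 31 were among the 59453 gene names of the count table, and all 31 were among the 16556 genes that passed the expression filter and were tested.

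Glycolysis splits glucose into pyruvate, and many tumor cells turn most of that pyruvate into lactate and export it even when oxygen is present. Hexokinase, phosphofructokinase and pyruvate kinase catalyse the steps that are effectively irreversible, and phosphofructokinase is activated by a bisphosphate of fructose that the PFKFB enzymes make and break down. Pyruvate dehydrogenase kinases shut the gate through which pyruvate enters the mitochondrial matrix pathways. Many of these genes are known targets of the hypoxia-inducible factor HIF-1, whose response element has ACGTG or GCGTG as its core.

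MDA-MB-231 is an established human triple-negative breast cancer line with a mesenchymal phenotype. RNA-Seq covered 3 groups of 3 replicates: untreated cells, cells given TEPA for 8 h and cells given TEPA for 24 h, and a single untreated group served both times. TEPA, a polyamine copper chelator, is given as 8 mM in the sample labels and as 4 mM in the RNA sequencing methods of the study, and its full chemical name also differs within the study, so neither is settled here. Nothing in the labels says that replicates came from separate cultures, so p-values measure the spread between these libraries, which may be technical.

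Total counts ran from 34633755 to 49342659 per library. Untreated replicates 1 and 2 were the farthest apart of all replicate pairs, with a chi-square per degree of freedom of 21.4. The other untreated pairs gave 6.65 and 8.65, and pairs of treated replicates 2.38 to 7.6. Mitochondrially encoded transcripts took 1.79% to 2.91% of counts in untreated libraries, 3.61% to 4.02% at 8 h and 1.89% to 2.02% at 24 h. Mesenchymal markers of the line (VIM, CD44, EGFR, CAV1 and AXL) summed to 5970 to 6590 CPM (counts per 1000000 counts of the library, with scaled library sizes) in untreated libraries, 7370 to 7530 at 8 h and 5820 to 6060 at 24 h. The 5 luminal markers summed to 13.7 to 15.3, 14.6 to 15.8 and 20.2 to 21.1 CPM, with PGR at 0 counts throughout. Immune markers stayed at or below 0.392 CPM with CD3E at 0, and muscle markers at or below 0.0463 CPM with MYH2 at 0. Fibroblast markers summed to 28.7 to 41.2, 24.4 to 28.9 and 91.2 to 99.6 CPM, with DCN at 0 in untreated and 8 h libraries, and endothelial markers to 2.98 to 4.1, 0.924 to 1.28 and 7.2 to 8.98 CPM. Nearly all of the fibroblast sum was PDGFRB, with means of 34.2, 27.1 and 94.5 CPM. The endothelial sum was nearly all PECAM1, with means of 3.59, 1.06 and 8.13 CPM. What part these shifts have in the results below was not tested.

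In untreated cells the 31 genes together took 1.66% ± 0.0441 (SD, n = 3) of all counts. Their share was 1.42% ± 0.0146 at 8 h and 1.5% ± 0.0347 at 24 h (n = 3 each), so every treated library lay below every untreated one. With TMM-scaled library sizes the shares at 8 h and 24 h were 1.45% and 1.46%, so the order of the treated times rests on the scaling. GAPDH alone accounted for 0.405% of untreated counts, PKM for 0.284% and the enolases for 0.247%, without regard to gene length. In bulk RNA, a lower share from fewer cells using a gene cannot be told apart from less RNA of that gene per cell.

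The shares of counts above also depend on gene length, so levels were compared between genes per length, as CPM per kilobase of annotated exon (RPKM). GAPDH led with 1710 ± 14.4 RPKM (SD, n = 3) in untreated cells, followed by ENO1 with 457 ± 5.16. PKM at 335 ± 6.46 and LDHA at 327 ± 15.7 RPKM did not differ beyond their spread. TPI1 reached 278, PGAM1 188, SLC2A1 120, PGK1 93.9, PFKP 73.9 and SLC16A3 66.6 RPKM. At the other end stood PFKFB2 with 1.24, PDK4 with 1.2, TIGAR with 0.396 and SLC16A1 with 0.0422 RPKM. Of the isozymes, SLC2A1, HK1, PFKP, ENO1 and SLC16A3 were the main forms of their steps by this measure. The levels of ALDOA, LDHB and TIGAR need care, since 42.8%, 33.4% and 18.1% of their exonic bases are also exons of another gene on the same strand, and reads there may not have been counted for them. How far this lowered their counts or bears on their fold changes was not tested, and no balance of ALDOA with ALDOC or of LDHA with LDHB is given.

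**Figure D1:**
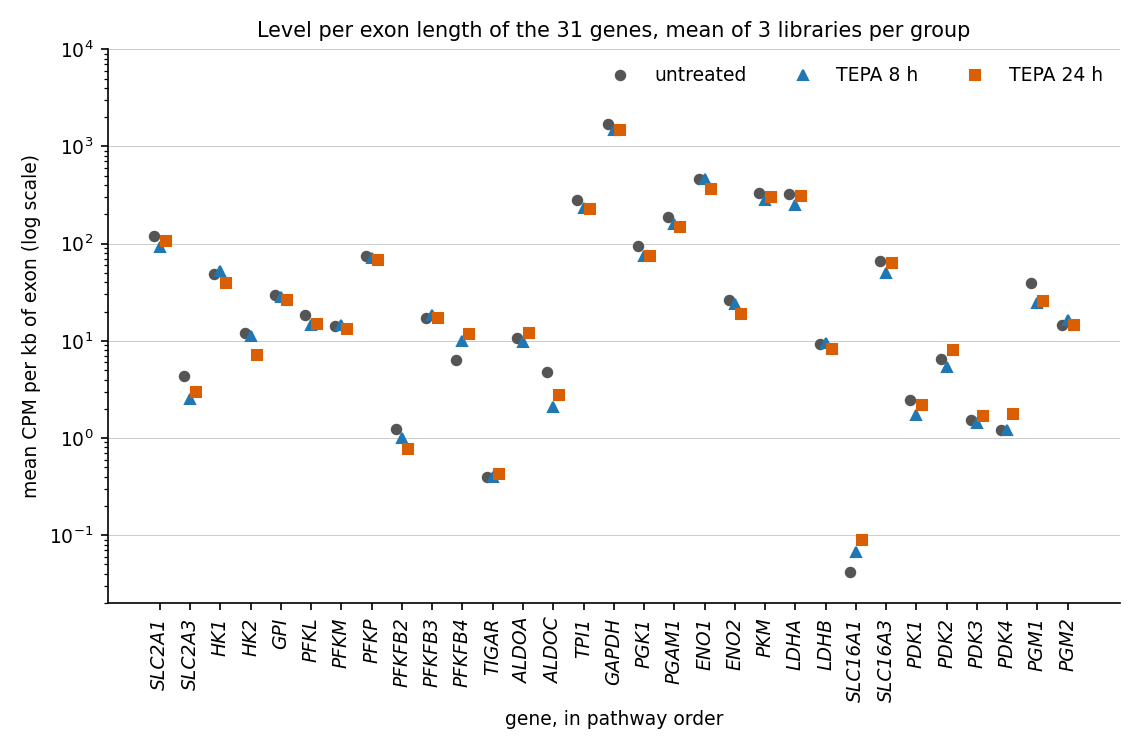
Mean level of the 31 genes in CPM per kilobase of exon (vertical log axis) in pathway order (horizontal axis), for untreated cells (grey circles), TEPA 8 h (blue triangles) and TEPA 24 h (orange squares), 3 libraries per group. GAPDH stands highest with 1710 in untreated cells and SLC16A1 lowest with 0.0422, and within a gene the groups lie close together against this range.

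After 8 h of TEPA, 16 of the 31 genes (51.6%) were downregulated and 4 (12.9%) upregulated at an edgeR adjusted p under 0.05. Over all 16556 genes tested, 24.5% were lower and 25.2% higher in the same comparison, so the lower calls among the pathway genes stood above this background and the higher calls below it. The median log2 fold change of the 31 genes was -0.13, beside -0.001 for all genes tested. Single genes ranged from -1.17 (ALDOC) to 0.67 (PFKFB4). Most changes were small, and only 3 of the lower genes (SLC2A3, ALDOC and PGM1) and 1 of the higher genes (PFKFB4) reached a log2 fold change of 0.5 in size. The count of higher genes fell from 4 to 2 without untreated replicate 1 or without TEPA 24 h replicate 1, and to 1 without untreated replicate 3 or without TEPA 8 h replicate 3.

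After 24 h, 20 of the 31 genes (64.5%) were downregulated and 5 (16.1%) upregulated, against 26.8% lower and 25.7% higher over all genes tested. The median was -0.18, beside 0.002 for all genes. Of the 17 enzymes from hexokinase to lactate dehydrogenase, 15 were lower, ALDOA was higher, and LDHA was not called. The call of ALDOA carries the limit given above, that reads in its shared exons may not have been counted. At 8 h the same 17 enzymes gave 9 lower, 1 higher and 7 not called. With a limit of 0.5 on the log2 fold change, 5 members were lower and 3 higher at 24 h. The share of all tested genes past this limit was not computed, so these counts and those at 8 h have no background. Both comparisons use the same untreated libraries, so they are not independent.

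Set side by side, the calls against untreated cells differed in sign for HK1, higher at 8 h and lower at 24 h, and for PDK2, which showed the reverse. PFKFB4 was called higher at each time. ALDOA, SLC16A1 and PDK4 were called higher at 24 h and not at 8 h, whereas PFKFB3 and PGM2 were called higher at 8 h and not at 24 h. LDHA and SLC16A3 were called lower at 8 h and not at 24 h. With all libraries in the fit, TIGAR and PDK3 were not called at either time, although PDK3 was called when some single libraries were left out.

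**Figure D2:**
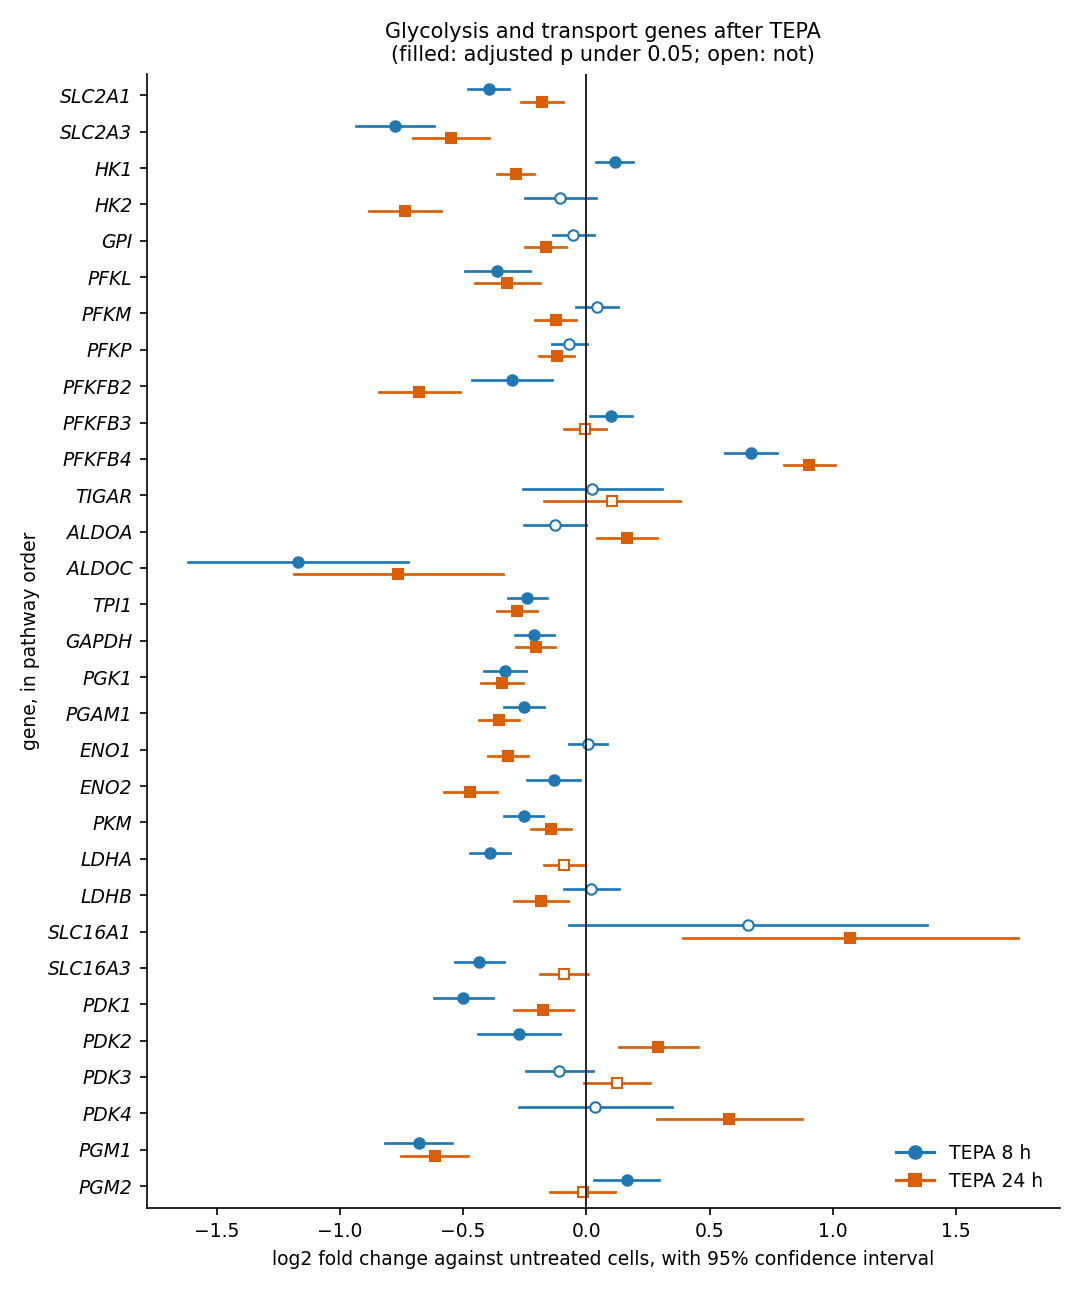
Log2 fold change against untreated cells (horizontal axis) with its 95% confidence interval for each of the 31 genes in pathway order (vertical axis), at 8 h (blue circles) and 24 h (orange squares), from 3 libraries a group; filled symbols have an adjusted p under 0.05. Most symbols lie left of 0, PFKFB4 lies right of it at both times, and the widest intervals are those of SLC16A1, ALDOC, PDK4 and TIGAR.

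The sequences upstream of 3 genes are shown for their HIF-1 core motifs: PFKFB4, the gene upregulated at both times, ALDOC, the gene with the lowest log2 fold change, and PGK1, a long-known HIF-1 target that was downregulated at both times. Each is the 250 bases before the RefSeq start of the gene in GRCh38.p14, 5′ to 3′ on the strand of the gene, with ACGTG and GCGTG, and their reverse complements, in capitals.
PFKFB4: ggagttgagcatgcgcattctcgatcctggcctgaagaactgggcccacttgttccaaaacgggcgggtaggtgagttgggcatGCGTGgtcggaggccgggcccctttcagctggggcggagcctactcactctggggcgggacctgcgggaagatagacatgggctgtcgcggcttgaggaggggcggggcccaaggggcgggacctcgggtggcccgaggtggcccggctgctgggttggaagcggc
ALDOC: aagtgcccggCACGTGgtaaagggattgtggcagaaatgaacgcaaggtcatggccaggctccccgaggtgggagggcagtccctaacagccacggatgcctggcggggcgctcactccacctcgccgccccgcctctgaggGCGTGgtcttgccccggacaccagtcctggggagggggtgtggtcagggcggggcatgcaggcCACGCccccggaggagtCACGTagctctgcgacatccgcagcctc
PGK1: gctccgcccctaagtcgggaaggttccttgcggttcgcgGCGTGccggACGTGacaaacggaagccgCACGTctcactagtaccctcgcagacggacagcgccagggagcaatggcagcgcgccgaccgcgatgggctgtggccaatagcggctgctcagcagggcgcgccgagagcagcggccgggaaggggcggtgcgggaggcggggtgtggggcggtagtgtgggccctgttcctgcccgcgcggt
They lie at chr3:48556804-48557053 on the minus strand, chr17:28576896-28577145 on the minus strand and chrX:78103998-78104247 on the plus strand. The PFKFB4 window held 1 core match, the ALDOC window 5, counting both strands of its palindromic CACGTG, and the PGK1 window 3. The single core upstream of PFKFB4 was GCGTG, while the other windows held both cores. The window of PFKL, a gene downregulated at both times, also held a single GCGTG as its only core. Whether the cores bear on the changes was not tested.

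Promoters were at hand for 28 of the 31 genes, with 58 start sites. ACGTG was found in 22 of these 58 windows (37.9%), against 18.5% of all 35116 windows of the same length. GCGTG was found in 18 (31%), against 32.2%, and at least one of these cores in 31 (53.4%), against 43.2%. CACGTG, which overlaps ACGTG, was found in 8 (13.8%), against 6.34%. Both strands were searched. Windows of the same gene share sequence, and a match is a description of the letters, not of binding.

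Glucose enters through SLC2A1 (GLUT1, chr1:42925353-42958893), the main glucose transporter here, and SLC2A3 (GLUT3, chr12:7919230-8019007), a transporter of high affinity. SLC2A1 measured 804, 773 and 811 CPM without TEPA, 588, 617 and 611 at 8 h, and 703, 733 and 673 at 24 h. It was downregulated at 8 h (log2 fold change -0.40 ± 0.04 SE, edgeR adjusted p = 8.6e-07) and by less at 24 h (-0.18 ± 0.04, edgeR adjusted p = 0.0012), with no overlap between the 3 groups. SLC2A3 measured 35.2, 28.8 and 29.9 CPM in untreated cells, 17, 18.7 and 19.2 at 8 h, and 21.9, 20.6 and 21.6 at 24 h. All its treated libraries lay below all untreated ones, and its log2 fold changes were -0.78 ± 0.07 (edgeR adjusted p = 6e-07) and -0.55 ± 0.07 (edgeR adjusted p = 1.2e-05). Named copies of SLC2A3, its near-identical paralog SLC2A14 among them, held 1.03% to 2.63% of its counts and could share reads with it.

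Hexokinase traps glucose in the cell as its phosphate. HK2 (chr2:74834127-74893359), the inducible form, measured 62.3, 79.1 and 71.4 CPM in untreated cells, 69.5, 65.3 and 63.2 at 8 h, and 43.6, 43.5 and 40.7 at 24 h. At 8 h the libraries overlapped the untreated ones (-0.11 ± 0.07, edgeR adjusted p = 0.21), whereas at 24 h all 3 lay below them (-0.73 ± 0.07, edgeR adjusted p = 3.1e-07), a fall of 39.9%. Without untreated replicate 1 the value at 8 h was -0.19 and was called (edgeR adjusted p = 0.0064). HK1, the housekeeping form, had 332 ± 6.86 CPM (SD, n = 3) in untreated cells, 360 ± 3.38 at 8 h and 272 ± 8.8 at 24 h. Its rise at 8 h (0.12 ± 0.04, edgeR adjusted p = 0.013) was lost without untreated replicate 3 or TEPA 8 h replicate 3, and its fall at 24 h was -0.29 ± 0.04 (edgeR adjusted p = 5.7e-06).

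The isomerase GPI, which converts glucose phosphate to fructose phosphate, had 313 CPM in untreated cells and a log2 fold change of -0.05 at 8 h (edgeR adjusted p = 0.29), and fell by 0.16 at 24 h (edgeR adjusted p = 0.0024). Phosphofructokinase commits sugar to glycolysis, and PFKP (chr10:3066333-3137718), its platelet form, was the leading isozyme. PFKP measured 585, 569 and 569 CPM in untreated cells, 544, 549 and 550 at 8 h, and 533, 538 and 515 at 24 h. The groups did not overlap, but the change was small, at -0.07 ± 0.03 (edgeR adjusted p = 0.1) and -0.12 ± 0.03 (edgeR adjusted p = 0.007). PFKL, the liver form, fell at both times, by 0.36 and 0.32 on the log2 scale (edgeR adjusted p = 2e-04 and 0.00046). PFKM, the muscle form, had 0.04 at 8 h (edgeR adjusted p = 0.4) and -0.12 at 24 h (edgeR adjusted p = 0.015), a call lost without untreated replicate 2, TEPA 24 h replicate 1 or TEPA 24 h replicate 3.

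The enzymes that make and break down the fructose bisphosphate activator of phosphofructokinase moved apart. PFKFB4 (chr3:48517684-48562015) measured 37.5, 39.3 and 38.2 CPM in untreated cells, 57.9, 62 and 62.8 at 8 h, and 74.1, 73.8 and 67.4 at 24 h. The 3 groups did not overlap, and PFKFB4 was upregulated 1.59-fold at 8 h (0.67 ± 0.05, edgeR adjusted p = 4.8e-08) and 1.87-fold at 24 h (0.91 ± 0.05, edgeR adjusted p = 8e-10). Among the 31 genes it was the one with the smallest adjusted p at each time.

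PFKFB2 (chr1:207034366-207081024), the form known from heart, went the other way. It measured 13.7, 11.7 and 12.5 CPM in untreated cells, 9.67, 10.5 and 10.6 at 8 h, and 8.06, 7.94 and 7.67 at 24 h. The groups did not overlap, with log2 fold changes of -0.30 ± 0.08 (edgeR adjusted p = 0.0039) and -0.68 ± 0.08 (edgeR adjusted p = 2.7e-06). PFKFB3, the form with the strongest kinase activity and the most abundant of these genes, had 105, 113 and 105 CPM in the 3 groups. Its call at 8 h (0.10 ± 0.04, edgeR adjusted p = 0.044) was lost in 12 alternatives, and at 24 h its log2 fold change was -0.005 (edgeR adjusted p = 0.93). TIGAR, a phosphatase that lowers the activator, had 0.02 and 0.10 (edgeR adjusted p = 0.89 and 0.53), with 95% intervals from -0.26 to 0.31 and from -0.17 to 0.38.

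Aldolase splits the sugar bisphosphate. ALDOC (chr17:28573115-28576948), the brain form, measured 18.5, 8.29 and 10.5 CPM in untreated cells, 5.67, 5.67 and 5.11 at 8 h, and 7.47, 7.46 and 6.86 at 24 h. Untreated replicate 1 lay far above the other untreated libraries, yet all untreated libraries lay above all treated ones. Its log2 fold changes were -1.17 ± 0.21 (edgeR adjusted p = 0.00026) and -0.76 ± 0.20 (edgeR adjusted p = 0.0045), and without untreated replicate 1 they were -0.78 and -0.37 (edgeR adjusted p = 1.2e-05 and 0.0054). ALDOA gave -0.13 on the log2 scale at 8 h (edgeR adjusted p = 0.083), or -0.19 without untreated replicate 2 (edgeR adjusted p = 0.016), and rose by 0.17 at 24 h (edgeR adjusted p = 0.023), a call lost without untreated replicate 2, TEPA 24 h replicate 1 or TEPA 24 h replicate 2.

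The run of enzymes from triose phosphate to phosphoglycerate fell together. GAPDH (chr12:6534512-6538374), which oxidises the triose and is often taken as a reference transcript, measured 4060, 4130 and 4090 CPM in untreated cells, 3460, 3590 and 3560 at 8 h, and 3530, 3700 and 3420 at 24 h. All treated libraries lay below all untreated ones, with log2 fold changes of -0.21 ± 0.04 at 8 h (edgeR adjusted p = 0.00022) and -0.20 ± 0.04 at 24 h (edgeR adjusted p = 0.00025), a fall of 13.6% and 13.2%. TPI1, which interconverts the triose phosphates, fell by 0.24 and 0.28 on the log2 scale. PGK1, which makes ATP, fell by 0.33 and 0.34, and PGAM1, the mutase that follows, by 0.25 and 0.36. These 3 genes had an edgeR adjusted p of at most 7.4e-05 at each time. Named copies of TPI1 held 2.45% to 2.93% and those of PGAM1 1.72% to 2.13% of the counts of the parent genes, so their values carry that uncertainty.

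Enolase makes phosphoenolpyruvate. ENO1, the form found in most tissues, had 2380 ± 26.9, 2390 ± 37.2 and 1910 ± 79.5 CPM (SD, n = 3 each). Its log2 fold change was 0.01 at 8 h (edgeR adjusted p = 0.89, 95% interval from -0.07 to 0.09) and -0.32 ± 0.04 at 24 h (edgeR adjusted p = 3.5e-06). ENO2, the neuronal form, had -0.13 at 8 h (edgeR adjusted p = 0.041, lost in 8 alternatives, with -0.08 without untreated replicate 1) and -0.47 ± 0.05 at 24 h (edgeR adjusted p = 1.5e-06).

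PKM and LDHA were lowest at 8 h. PKM (chr15:72199029-72231819), which makes pyruvate and ATP, measured 2910, 2810 and 2910 CPM in untreated cells, 2360, 2440 and 2440 at 8 h, and 2570, 2710 and 2520 at 24 h. Its groups did not overlap, with log2 fold changes of -0.25 ± 0.04 (edgeR adjusted p = 4.3e-05) and -0.14 ± 0.04 (edgeR adjusted p = 0.0043). LDHA (chr11:18394560-18408425), which reduces pyruvate to lactate, measured 2060, 1870 and 1970 CPM in untreated cells, 1520, 1510 and 1470 at 8 h, and 1830, 1870 and 1860 at 24 h. At 8 h it was 23.8% lower (-0.39 ± 0.04, edgeR adjusted p = 8.3e-07), and at 24 h its level was -0.09 ± 0.04 from untreated on the log2 scale (edgeR adjusted p = 0.066). Without untreated replicate 2, the value at 24 h was -0.13 and was called (edgeR adjusted p = 0.01). LDHB, the form favouring pyruvate, had 0.02 at 8 h (edgeR adjusted p = 0.77) and fell by 0.18 at 24 h (edgeR adjusted p = 0.0068).

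Lactate leaves the cell through SLC16A3 (MCT4, chr17:82217934-82261129), the exporter of glycolytic cells, while SLC16A1 (MCT1, chr1:112911847-112957593) carries lactate both ways. SLC16A3 measured 654, 583 and 610 CPM in untreated cells, 449, 456 and 462 at 8 h, and 570, 612 and 553 at 24 h. It was lower in all libraries at 8 h (-0.43 ± 0.05, edgeR adjusted p = 1.7e-06) and overlapped untreated cells at 24 h (-0.09 ± 0.05, edgeR adjusted p = 0.12). Without untreated replicate 2 or TEPA 24 h replicate 2 the 24 h value was called (-0.13 each, edgeR adjusted p = 0.026).

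SLC16A1 was close to silent. It had only 12, 14 and 7 counts without TEPA, 22, 16 and 11 at 8 h, and 29, 25 and 20 at 24 h, which is 0.268, 0.422 and 0.568 CPM on average. At 24 h it was higher in 3 of 3 libraries (1.07 ± 0.32, edgeR adjusted p = 0.01), a call lost without untreated replicate 3 (0.86, edgeR adjusted p = 0.058), and at 8 h it was not called (0.66 ± 0.34, edgeR adjusted p = 0.13). SLC16A3 held 99.9% of the summed per-length level of both transporters in each group.

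**Figure D3:**
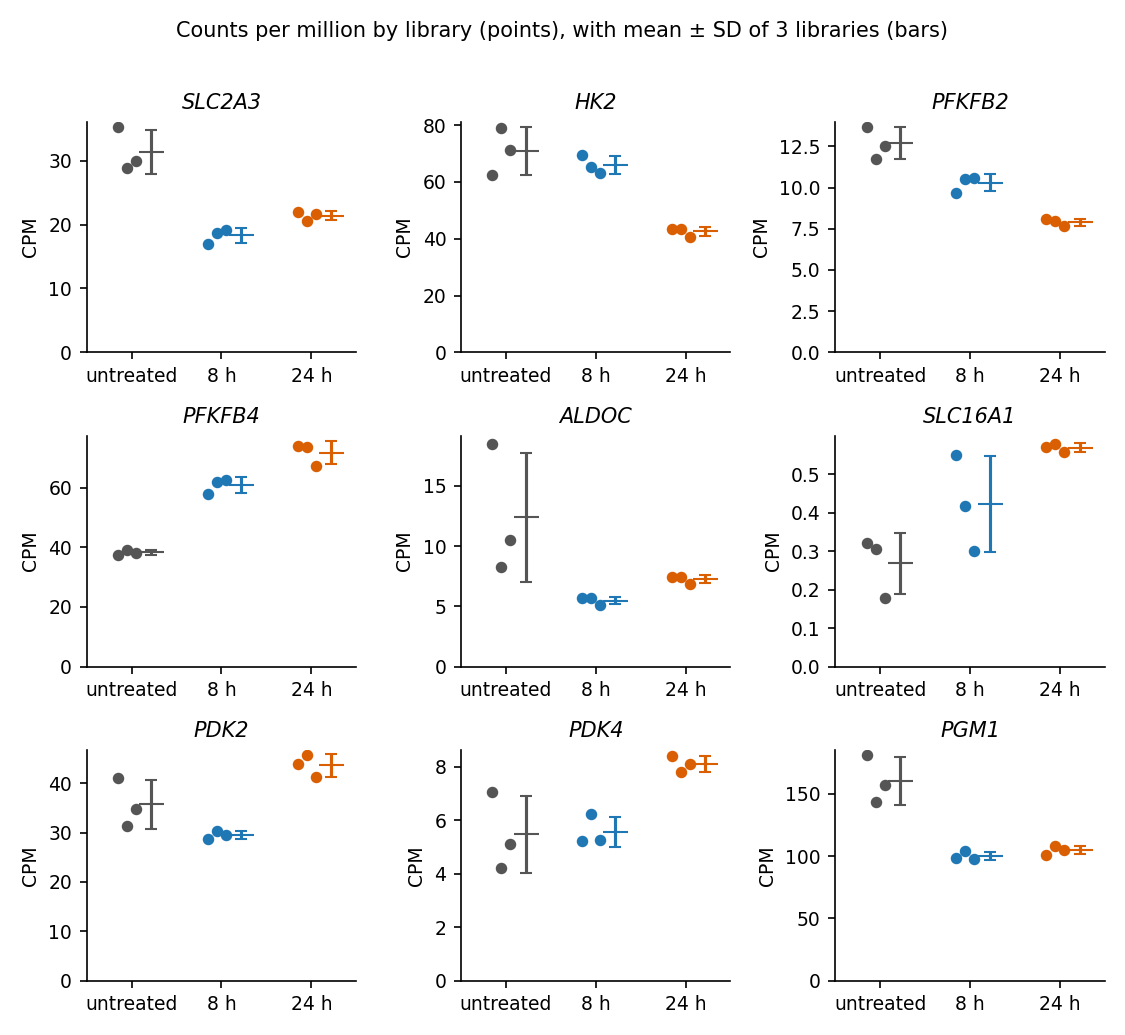
CPM in each library (points) with the mean ± SD of 3 libraries (bars) for the 9 genes called with a log2 fold change of at least 0.5 in size in any comparison; the vertical axes start at 0 and differ between panels, and the horizontal axes give the group. PFKFB4 steps up from 38.3 to 60.9 and 71.8 CPM, HK2 is lower at 24 h, and PDK2 dips at 8 h and rises at 24 h.

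Of the pyruvate dehydrogenase kinases, all 4 were higher at 24 h than at 8 h. PDK2 (chr17:50094737-50112152) measured 41.1, 31.3 and 34.8 CPM in untreated cells, 28.6, 30.3 and 29.6 at 8 h, and 43.8, 45.8 and 41.2 at 24 h. The groups did not overlap, though 41.1 in untreated replicate 1 came close to 41.2 at 24 h. PDK2 fell at 8 h (-0.27 ± 0.08, edgeR adjusted p = 0.0084) and rose at 24 h (0.29 ± 0.08, edgeR adjusted p = 0.0041), and without untreated replicate 1 the value at 8 h was -0.16 (edgeR adjusted p = 0.034). PDK4 (chr7:95583499-95596516), a form known to rise on fasting, measured 7.06, 4.22 and 5.12 CPM in untreated cells, 5.22, 6.22 and 5.25 at 8 h, and 8.41, 7.8 and 8.12 at 24 h.

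The 8 h libraries of PDK4 overlapped the untreated ones (0.04 ± 0.15, edgeR adjusted p = 0.86), and all 3 at 24 h lay above them (0.58 ± 0.14, edgeR adjusted p = 0.0024). PDK1, a known HIF-1 target, had 36.3, 25.6 and 32.2 CPM and fell at 8 h (-0.50 ± 0.06, edgeR adjusted p = 3.4e-06). Its fall at 24 h was smaller (-0.18 ± 0.06, edgeR adjusted p = 0.015) and was lost without TEPA 24 h replicate 1 or 2. PDK3 had -0.11 and 0.12 (edgeR adjusted p = 0.17 and 0.11). Without untreated replicate 2, PDK3 was called lower at 8 h (-0.18, edgeR adjusted p = 0.032). It was called higher at 24 h without untreated replicate 1 (0.17, edgeR adjusted p = 0.03) or without TEPA 24 h replicate 2 (0.17, edgeR adjusted p = 0.044).

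Phosphoglucomutase links glucose phosphate with glycogen. PGM1 (chr1:63593411-63660245) measured 181, 143 and 157 CPM in untreated cells, 98.6, 104 and 97.9 at 8 h, and 101, 108 and 105 at 24 h. The treated groups lay below all untreated libraries and overlapped each other, with log2 fold changes of -0.68 ± 0.06 (edgeR adjusted p = 5.2e-07) and -0.61 ± 0.06 (edgeR adjusted p = 9.3e-07). PGM2, its relative, had 54, 60.6 and 53.5 CPM, and its call at 8 h (0.16 ± 0.06, edgeR adjusted p = 0.039) was lost in 7 alternatives. Without untreated replicate 1 or TEPA 8 h replicate 1 it was 0.10 and 0.11 (edgeR adjusted p = 0.17 and 0.21).

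The direct comparison of 24 h with 8 h, which does not use the untreated libraries as a reference, called 11 genes higher and 11 lower (35.5% each), against 26% and 28.8% of all genes tested. The median over the 31 genes was 0.04, beside -0.016 for all genes. The genes higher at 24 h were SLC2A1, SLC2A3, PFKFB4, ALDOA, PKM, LDHA, SLC16A3 and the 4 pyruvate dehydrogenase kinases. PDK2 (0.57 ± 0.08) and PDK4 (0.54 ± 0.14) had the largest rises, with an edgeR adjusted p of 1.4e-05 and 0.0036. The genes lower at 24 h were led by HK2 (-0.63 ± 0.07), HK1 (-0.40 ± 0.04) and PFKFB2 (-0.38 ± 0.08), with an edgeR adjusted p of 1.5e-06, 1.4e-07 and 0.00087. ENO1 (-0.32), ENO2 (-0.34), LDHB (-0.21), PGM2 (-0.18), PFKM (-0.17), GPI (-0.11), PFKFB3 (-0.11) and PGAM1 (-0.10) made up the rest. ALDOC (0.41, edgeR adjusted p = 0.13) was called without untreated replicate 1 (edgeR adjusted p = 0.0018) or 2 (edgeR adjusted p = 0.036). The lower count fell to 7 without TEPA 24 h replicate 3, and the median was -0.01 without TEPA 24 h replicate 2.

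The balance between forms of a step, or between related genes, was measured within each library as the share of each in the summed per-length level. The share of PFKFB4 in the PFKFB family was 25.4, 25.6 and 25.2% in untreated cells, 33.8, 33.7 and 34.2% at 8 h, and 40.1, 40.1 and 38.7% at 24 h, without overlap between groups. PFKFB3 kept the largest part, at means of 69.6%, 62.7% and 57.8%, and PFKFB2 went from 5.04% to 3.42% and 2.62%. HK2 held 19.9% ± 2.02 of the hexokinase level in untreated cells, 17.6% ± 0.734 at 8 h and 15.4% ± 0.447 at 24 h (SD, n = 3 each).

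PGM2 held 27.4% ± 4.28, 40.2% ± 1.99 and 36.2% ± 1.19 of the phosphoglucomutase level, and its treated libraries lay above all untreated ones. PFKP held 69.3%, 70.8% and 70.9% of phosphofructokinase, and PDK2 55.6%, 55.2% and 58.6% of the kinase family. With 3 libraries against 3, the exact two-sided permutation test cannot go below p = 0.1, and after adjustment over 51 tests the smallest value was 0.13, so no share could pass the test.

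**Figure D4:**
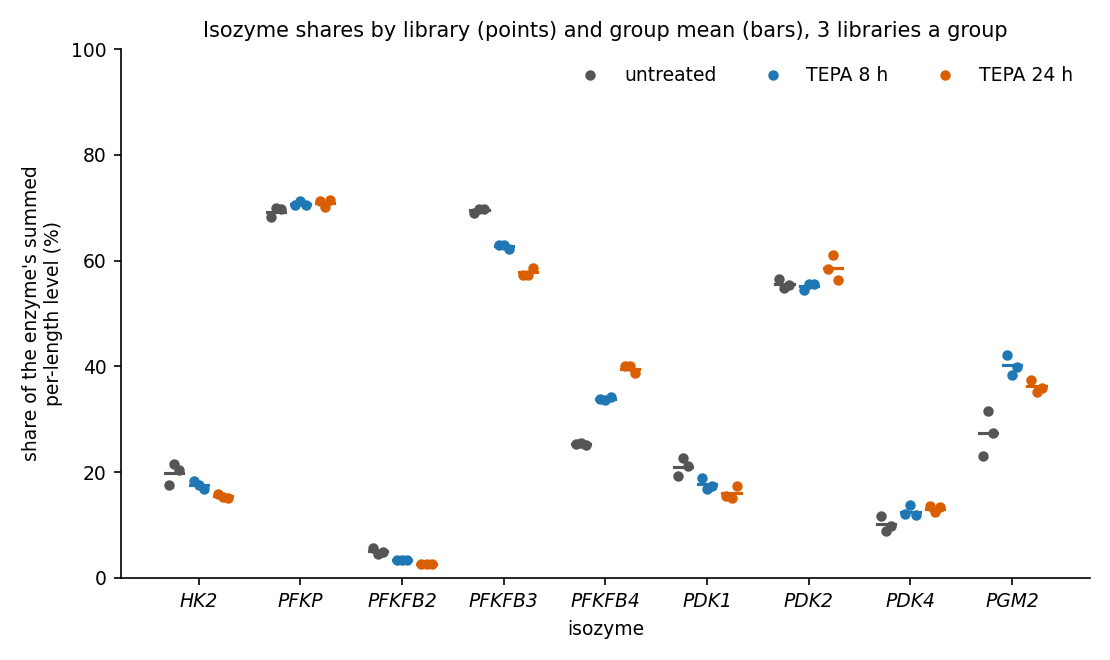
Share of single forms in the summed per-length level of their enzyme or related genes (vertical axis, percent). Points are libraries, 3 a group, and bars are group means, for untreated cells (grey), TEPA 8 h (blue) and TEPA 24 h (orange). PFKFB4 climbs from 25.4% to 33.9% and 39.6% while PFKFB3 falls from 69.6% to 57.8%, and PFKP stays between 68.3% and 71.5%.

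Around the pathway, genes of neighbouring routes were read from lists, whose counts stand against the shares of all tested genes given above (24.5% lower and 25.2% higher at 8 h, 26.8% lower and 25.7% higher at 24 h). The lists are short, and a count close to these shares is no result about a list. Of 20 tested genes among other isozymes and transporters, 5 were higher and 6 lower at 8 h, and the same counts held at 24 h. SLC2A10 fell at both times (-1.48 and -1.43), SLC2A12 fell at 8 h (-1.92) and had 0.02 at 24 h, and HKDC1, near 1 CPM, rose at 8 h (1.19) and fell at 24 h (-1.14). Of 11 genes of pyruvate entry into mitochondria, 1 was higher and 6 lower at 8 h, and 4 higher and 3 lower at 24 h. The phosphatase PDP2, which counters the pyruvate dehydrogenase kinases, rose at both times (0.32 and 0.51), and PDHB of the dehydrogenase itself fell at 8 h (-0.30). The carboxylase PC fell at 8 h (-0.235) and rose at 24 h (0.34).

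In the pentose phosphate pathway, 2 of 8 tested genes were higher and 5 lower at 8 h, and 2 higher and 3 lower at 24 h. H6PD fell at 8 h (-0.39), and PGD fell by 0.87 at 24 h. TALDO1 rose at 8 h (0.197) and fell by 0.29 at 24 h. Of 15 glycogen genes, 5 were higher and 7 lower at 8 h, and 2 higher and 4 lower at 24 h. PYGM rose (1.3, near 1 CPM) and PHKB fell (-0.50) at 8 h, and PPP1R3B fell at 24 h (-0.55). Of 4 tested genes of gluconeogenesis, 1 was higher and 1 lower at 8 h, and 1 higher and 2 lower at 24 h, with FBP1 higher at both (0.52 and 0.53), G6PC3 lower at 8 h (-0.16) and SLC37A4 lower at 24 h (-0.40).

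Of 7 genes of the hexosamine pathway, 2 were higher and 2 lower at each time. GFPT2 fell at both (-0.62 and -0.27), OGT rose at 8 h (0.46) and GNPNAT1 rose at 24 h (0.38). Of 14 genes of glucose sensing and HIF control, 5 were higher and 5 lower at each time. TXNIP, a glucose-responsive gene whose product restrains glucose uptake, rose from 38.5 ± 5.3 CPM to 90.9 ± 0.861 after 8 h, and reached 99.1 ± 3.93 after 24 h (SD, n = 3 each), with log2 fold changes of 1.24 and 1.37 (edgeR adjusted p = 2.6e-09 and 3.7e-10). ARRDC4, a related arrestin, rose by 1.57 and 1.16. HIF1A itself had 366, 277 and 312 CPM and EPAS1, which encodes HIF-2α, 171, 100 and 145 CPM. Other genes of this list were split at 8 h, where ARNT (0.146) and EGLN2 (0.789) rose and EGLN3 (-0.823) fell. Whether HIF activity changed was not tested.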

How the data were processed

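The authors checked paired-end reads of a strand-specific mRNA library with FastQC, aligned them to hg38 with HISAT2, and counted them over exons per gene name with featureCounts, using strand. The deposited values are raw counts of 59453 gene names in 9 libraries, without normalization, and no column was left out. Versions are not given in the sources used here for every tool.

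In R 4.3.3, edgeR 4.0.16 kept genes by filterByExpr with a minimum count of 10, scaled by TMM, and fitted all 9 libraries together (quasi-likelihood test, Benjamini-Hochberg over 16556 genes, called under 0.05). The biological coefficient of variation was 0.0481. CPM use TMM-scaled library sizes. Standard errors are the log2 fold change over the square root of F. Exon lengths and gene positions are from GENCODE 44 on hg38, a different release from that of the authors on the same build. Promoters are from RefSeq. Values in every library are given for members called with a log2 fold change of at least 0.5 in size and for SLC2A1, HK2, PFKP, PKM, LDHA, SLC16A3 and GAPDH, and from each other list the 2 called genes with the largest change at each time are named. Some genes that meet this rule are not reported here. HIF1A, EPAS1, ARNT, EGLN2 and EGLN3 were named after their values were seen. The genes and lists were chosen with earlier results of these data known. The procedure was tested on simulated data. No pairing by replicate number was seen in the deviations of the libraries from their group means. Alternatives were DESeq2 1.42.0, library scaling by RLE or by the upper quartile, other filters, only the groups compared, a replicate block, each library left out, library sizes without the 31 genes and, chosen after seeing the data, without mitochondrial genes.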

Additional observations from a re-analysis of the deposited data

Results flagged for a closer look

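The direct test of TEPA 24 h against TEPA 8 h compares the 2 treated times. The labels give the untreated group no time, so a changed effect of TEPA cannot be told apart from time in culture. Over all genes tested, 26% were called higher and 28.8% lower at 24 h. Of the 31 genes, 22 passed this test, 11 higher and 11 lower (35.5% each). Their differences on the log2 scale, 24 h minus 8 h, were positive for SLC2A1 (0.22), SLC2A3 (0.23), PFKFB4 (0.24), ALDOA (0.29), PKM (0.11), LDHA (0.3), SLC16A3 (0.34), PDK1 (0.32), PDK2 (0.57), PDK3 (0.23) and PDK4 (0.54). They were negative for HK1 (-0.4), HK2 (-0.63), GPI (-0.11), PFKM (-0.17), PFKFB2 (-0.38), PFKFB3 (-0.11), PGAM1 (-0.1), ENO1 (-0.32), ENO2 (-0.34), LDHB (-0.21) and PGM2 (-0.18). The call was lost in 10 alternatives for PFKFB3, 11 for PGAM1, 4 for GPI, 3 for PGM2 and 2 each for SLC2A3 and PKM. Without TEPA 24 h replicate 3 the difference of GPI was -0.071 (edgeR adjusted p = 0.13). PDK2 and HK1 were the genes whose calls against untreated cells had opposite signs at the 2 times.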

How the results depend on the processing

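No log2 fold change of a called member changed sign under any alternative run. Of 1671 values of single members under alternatives, 1587 stayed on their side of the threshold, 70 lost the call and 14 gained one. Values of members not called could change sign, as for PDK4 at 8 h, which ran from -0.135 to 0.256. The median over all genes tested lay within 0.029 of 0 under every scaling tried. Such scaling itself centres most genes near 0, so this cannot show whether total RNA per cell changed. The count of members higher at 8 h (4) was 2 when only the groups compared were fitted, 2 with a replicate block, and 1 to 4 when 1 library was left out. A limit of 0.5 on the log2 fold change left 1 higher and 3 lower at 8 h, 3 and 5 at 24 h, and 2 and 1 for 24 h against 8 h. No share over all genes was computed at that limit. The median at 8 h (-0.13) was -0.169 with at least 10 counts in every library and ran from -0.197 to -0.133 when 1 library was left out. For 24 h against 8 h, leaving 1 library out gave 7 to 11 lower members, and a median from -0.011 to 0.048. With TMM-scaled library sizes the members took 1.45% of counts at 8 h and 1.46% at 24 h. Same-numbered libraries of different groups correlated in their deviations from the group means by -0.08 to 0.038 and other pairs by -0.054 to 0.073. No pairing by replicate number was seen, which does not tell whether same-numbered libraries were prepared together. The block gave 15 lower at 8 h, 5 higher and 20 lower at 24 h, and 11 higher and 10 lower for 24 h against 8 h. Depth limits SLC16A1, with 7 to 29 counts per library.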
